A study of Mus musculus with 6 samples.

Results

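The 9 genes examined here encode transcription factors of the glial and neural stem cell programme: the SOX factors Sox2, Sox4, Sox8, Sox9, Sox10 and Sox11, the bHLH factors Olig1 and Olig2, and the homeobox factor Nkx2-2. They were chosen by name, as all 9 listed members, and each was found in the NG2 table (9 of 22833 genes), the Tbx18 table (9 of 21008) and the naïve table (9 of 19679). SOX factors bind DNA through an HMG box and often work with a partner factor. In the oligodendrocyte lineage, Olig2 and Sox10 specify and maintain the oligodendrocyte precursor cell (OPC), Nkx2-2 and Sox8 take part in its maturation, and Sox2 is carried by neural stem cells and OPCs. Sox9 is known for radial glia and astrocytes, and Sox4 and Sox11 are best known from immature neurons and other cells that are leaving a progenitor state.

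The cells came from the cerebral cortex of mice aged 3 to 4 months of 2 genotypes. One was NG2-Cre-ERT2/Ai14-flx, called the NG2 line here, and the other was Tbx18-CreERT2/Ai14-flx, the Tbx18 line. In both, tamoxifen switches on the red reporter tdT (Ai14) in cells that use the driver gene. Each genotype gave 3 groups: naïve cortex, physical injury (intracerebral saline) and ischemic injury (ET-1/L-NAME, a constrictor of vessels with an inhibitor of nitric oxide synthesis). Injured cortex was taken 3 days after the injection, with tamoxifen given 7 days before the injury, and live tdT+/DAPI- cells were sorted for 10x Genomics 3' sequencing. The study compared the groups to ask which cell types the traced pericytes give rise to after injury. Cells of several animals of both sexes were pooled into 1 library per group, so there is no replicate of a condition, and the intervals given below are 95% intervals that cover counting error only. The NG2 gene (Cspg4) is used by OPCs as well as by pericytes, so tdT in an oligodendrocyte-lineage cell of the NG2 line does not show which of these cells it came from.

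The libraries held 4306, 2563 and 3586 NG2-tdT+ cells (naïve, physical, ischemic; median 4043, 6322 and 7851 unique molecular identifiers, UMIs, per cell) and 686, 3845 and 2047 Tbx18-tdT+ cells (median 2806, 7376 and 9232 UMIs). Any pair of libraries shared at most 5 cell barcodes, and the 4306 naïve NG2-tdT+ cells had identical counts in the naïve and the NG2 tables. The study's cluster numbers were used. Cluster 7, which the study calls radial glial precursors (RGPs), held 17, 76 and 438 cells, the OPCs (cluster 6) 100, 301 and 294, and the mature oligodendrocytes (OLs, cluster 4) 103, 294 and 592. The median depth of the RGPs, OPCs and OLs was 12792, 12390 and 23779 UMIs after physical and 37572, 11764 and 29600 after ischemic injury. Doublets were not called, and doublets among the deepest cells were not tested for, beyond a repeat without the deepest 5% of each cluster.

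The cluster names were set against marker genes. In the OLs the myelin gene Mog measured 2069, 2537 and 2924 CPM (counts divided by all UMIs of the summed cells, scaled to a total of 1000000), against at most 30.1 CPM in the OPCs. The 7 OPC markers (Pdgfra, Ptprz1 and others) summed to 13015, 13871 and 12059 CPM in the OPCs and to 7686 and 4371 CPM in the RGPs of physical and ischemic injury, so the RGP cluster carried OPC markers too. The dividing-cell genes (Top2a, Mki67 and others) reached 888 and 1467 CPM in the RGPs against 21.1 and 174 CPM in the OPCs of the same libraries. Naïve cluster 7 went against its name: its pericyte markers summed to 13649 CPM, against 35.0 and 49.0 in the injured RGPs, and 1 of its 17 cells had a UMI of Fabp7, a radial glial marker. Its values are plotted but were not compared. Naïve OPCs also held more pericyte marker RNA (1860 CPM) than injured OPCs (249 and 301 CPM). The clusters were built on expression that includes these 9 genes, and Sox2 is among the genes by which the study names RGPs, so the differences between clusters below are descriptions with no test.

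On the mouse genome build GRCm38, the gene annotation (GENCODE M21) places Sox2 at chr3:34650405-34652461, Sox4 at chr13:28948919-28953713, Sox8 at chr17:25565892-25570686, Sox9 at chr11:112782224-112787760, Sox10 at chr15:79154908-79165240 and Sox11 at chr12:27334264-27342574. Olig2 at chr16:91225457-91228677 and Olig1 at chr16:91269772-91271933 are neighbours on the plus strand, and Nkx2-2 lies at chr2:147177546-147194243. Sox2, Sox9, Olig1 and Olig2 lie on the plus strand and the other 5 on the minus strand. Sox2, Sox4, Sox11 and Olig1 have a single exon, so reads of these genes cannot be split among isoforms by splicing. Sox2 lies within the long noncoding gene Sox2ot on the same strand, and Sox4, Sox8, Olig1 and Nkx2-2 overlap an antisense gene. How reads in such overlaps were counted is not given in the sources used here.

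Of the 9 genes, 6 had a promoter entry in the RefSeq table for GRCm38.p6. The 250 bases before the start in that table are shown 5′ to 3′ for 4 of them, because these genes separate the 3 clusters below. Olig2 and Sox2 are higher in RGPs and OPCs than in OLs, and Sox4 and Sox11 differ most in OLs. These starts differ from the GENCODE starts given above. The windows of Sox2 and Sox11 end short of the GENCODE start, and those of Olig2 and Sox4 run past it into the gene. Capitals mark the letters ACAANG, a core that SOX factors bind, or CANNTG, the E-box bound by bHLH factors such as the OLIG proteins, searched on both strands.
Sox2 promoter, chr3:34649745-34649994, plus strand: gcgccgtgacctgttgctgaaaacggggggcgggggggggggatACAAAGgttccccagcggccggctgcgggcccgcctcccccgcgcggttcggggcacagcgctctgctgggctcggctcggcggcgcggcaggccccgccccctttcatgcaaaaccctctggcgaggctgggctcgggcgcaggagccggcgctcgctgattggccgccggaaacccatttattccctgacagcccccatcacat
Olig2 promoter, chr16:91225300-91225549, plus strand: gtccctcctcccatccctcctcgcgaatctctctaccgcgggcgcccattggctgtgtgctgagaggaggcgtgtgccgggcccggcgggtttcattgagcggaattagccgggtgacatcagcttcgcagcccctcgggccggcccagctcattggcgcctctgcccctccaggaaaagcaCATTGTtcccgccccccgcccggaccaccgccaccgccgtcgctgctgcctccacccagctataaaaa
Sox4 promoter, chr13:28953700-28953949, minus strand: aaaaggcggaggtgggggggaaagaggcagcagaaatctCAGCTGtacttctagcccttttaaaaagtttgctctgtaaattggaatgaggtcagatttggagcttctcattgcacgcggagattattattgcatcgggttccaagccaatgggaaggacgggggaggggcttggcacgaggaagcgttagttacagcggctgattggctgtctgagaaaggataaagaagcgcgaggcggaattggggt
Sox11 promoter, chr12:27342719-27342968, minus strand: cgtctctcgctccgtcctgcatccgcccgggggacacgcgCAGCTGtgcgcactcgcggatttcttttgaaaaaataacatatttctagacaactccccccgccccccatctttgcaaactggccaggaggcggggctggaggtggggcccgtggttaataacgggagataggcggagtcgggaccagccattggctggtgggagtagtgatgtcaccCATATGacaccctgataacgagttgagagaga
The windows of Sox2 and Olig2 each held 1 SOX core and 0 E-boxes, that of Sox4 held 0 and 1, and that of Sox11 held 0 and 2. Sox8 (1 E-box) and Nkx2-2 (3 E-boxes) had no SOX core either. Among 32851 windows of this length, 36.3% held the SOX core and 66.2% an E-box, so such matches are common and say nothing of binding.

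In the injured libraries, 7 of the 9 genes were found almost entirely in the RGPs, OPCs and OLs, with Sox4 and Sox9 as exceptions. Of all UMIs of a gene in the 3 NG2 libraries, to which the ischemic library gave the most, clusters 4, 6 and 7 held 99.4% for Nkx2-2, 99.3% for Sox2, 99.1% for Olig1, 99.0% for Sox10, 98.8% for Olig2, 98.4% for Sox8 and 98.2% for Sox11. In naïve cells the same share ran from 78.8% (Sox11) to 98.9% (Nkx2-2) for these 7. For Sox9 it was 16.7% of 12 UMIs in naïve, 40.4% of 104 in physical and 92.6% of 1006 in ischemic cells, and for Sox4 it was 11.7%, 65.7% and 80.9%. Clusters 4, 6 and 7 made up a larger part of the cells in the injured libraries than in the naïve one. Such a share rises with that part even where levels within cells stay the same. The share of all UMIs in these clusters is not given beside it, so the rise does not show a move of either gene into these clusters. In pericytes (clusters 0, 1, 2, 8 and 10) Sox4 reached 61.4, 77.5 and 103 CPM in naïve, physical and ischemic cells, and in endothelial cells (cluster 5) 64.3, 79.9 and 124 CPM. In both cell types the ischemic cells were highest. Sox4 went the other way in smooth muscle (cluster 3: 48.1, 35.0 and 34.6 CPM) and in microglia (cluster 9: 147, 55.7 and 50.3 CPM, with 18 naïve cells). Endothelial cells also carried Sox9, at 15.7, 16.5 and 13.5 CPM, where pericytes had at most 1.11 CPM. The other 7 genes stayed at low levels in pericytes. The ischemic library was the highest for Olig1 (7.84, 6.96 and 19.8 CPM), Olig2 (3.00, 3.40 and 7.08) and Sox11 (0.513, 1.94 and 6.52). It was also the highest for Sox10 (1.47, 2.26 and 5.27 CPM) and Sox2 (1.03, 0.809 and 3.75). It was not the highest for Sox8 (2.12, 1.29 and 1.94 CPM) or Nkx2-2 (0.0733, 0.485 and 0.139). Pericytes are not known to use Olig1, and free RNA in the droplets was not tested as a source of these UMIs.

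To compare shares of cells at equal depth, each cell was thinned at random to 2000 UMIs and shallower cells were left out, which kept 47 of 76 and 400 of 438 RGPs, 276 of 301 and 270 of 294 OPCs, and 291 of 294 and 563 of 592 OLs (physical and ischemic). At this depth a UMI of Sox2 was seen in 36.2% and 42.2% of RGPs, 37.3% and 40.0% of OPCs and 18.9% and 17.9% of OLs. The same share was 0.0860% and 0.405% in pericytes, whose median depth before thinning was 4749 and 4519 UMIs. Before thinning, 75.1% of OPCs of physical injury and 79.6% of OLs of that library had a Sox2 UMI, so the order of these clusters depends on the depth and is read here only from thinned cells and CPM. For Olig1 the thinned shares were 83.0% and 76.2% in RGPs, 77.9% and 67.4% in OPCs and 83.8% in OLs of both libraries, against 1.98% and 4.21% in pericytes. Single cells of the RGP and OPC clusters often showed several of the genes at once, and OLs less so at this depth. Here 3 or more of the 9 had a UMI in 57.4% and 60.2% of RGPs and 63.0% and 61.1% of OPCs. For OLs it was 28.2% and 31.1%. At 5000 UMIs the shares were 89.1% and 89.0% of RGPs, 94.4% and 91.4% of OPCs and 79.4% and 79.5% of OLs. The gap to OLs was thus much smaller there and depends on the depth. No share for other sets of genes is given beside these.

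**Figure D1:**
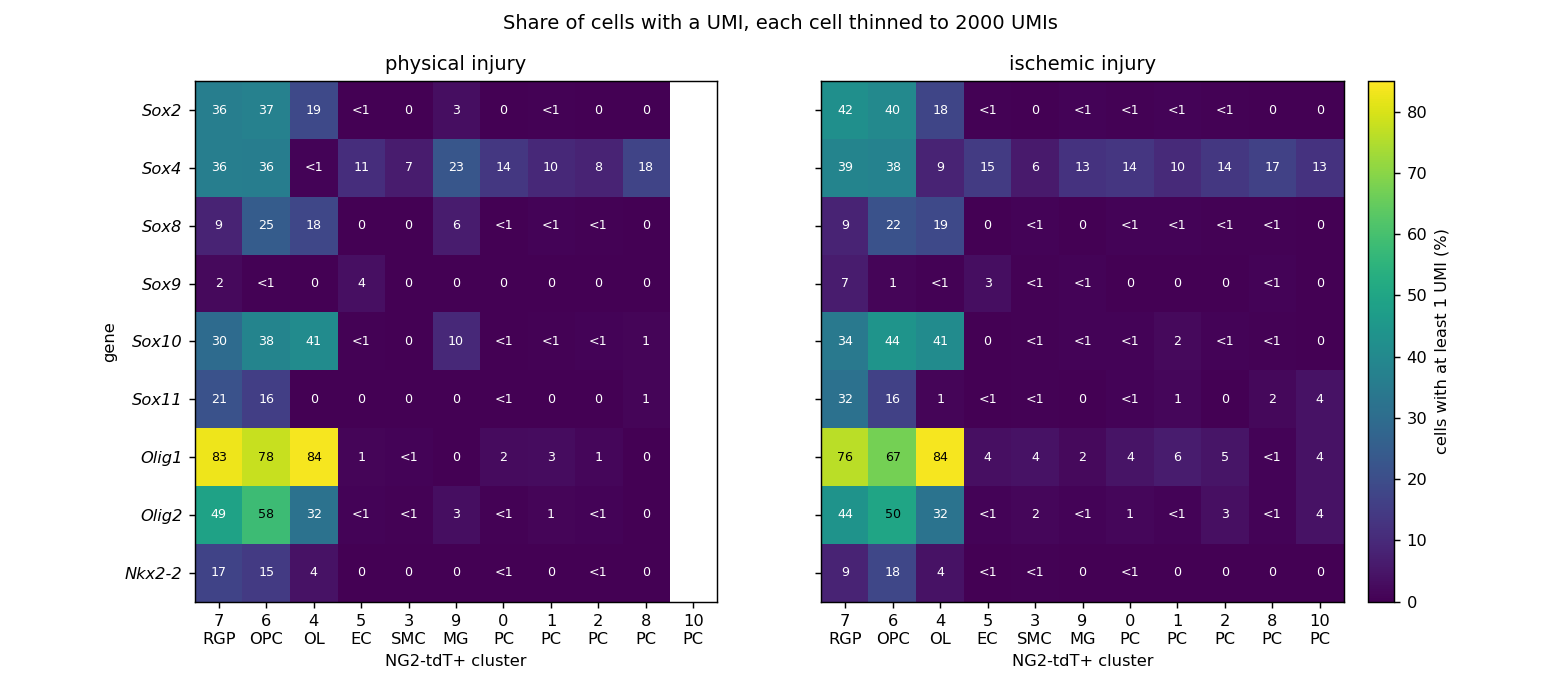
Share of NG2-tdT+ cells (%) with at least 1 UMI of each gene, each cell thinned to 2000 UMIs, by study cluster (RGP, OPC and OL, then endothelial cells EC, smooth muscle SMC, microglia MG and pericytes PC) in the 2 injured libraries. Clusters with fewer than 20 cells at that depth are blank. High shares lie in clusters 7, 6 and 4, apart from Sox4, which 6.20% to 22.6% of the cells of the other clusters showed.

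Olig1, Olig2 and Sox10, the core factors of the oligodendrocyte lineage, were present in all 3 clusters. Sox10, which switches on myelin genes together with its partners, measured 247 (217 to 281) and 213 (206 to 221) CPM in RGPs of physical and ischemic injury. It measured 271, 322 and 327 CPM in naïve, physical and ischemic OPCs and 370, 269 and 254 CPM in OLs. Its levels thus lay within a narrow range, with RGPs lowest in each injured library and naïve OLs highest, although after physical injury the intervals of RGPs and OLs (257 to 281) overlapped. Olig1, which takes part in OL maturation and repair, measured 1387 (1313 to 1463) and 959 (943 to 974) CPM in RGPs, 791, 1169 and 942 CPM in OPCs and 977, 1104 and 1186 CPM in OLs. On CPM its order differed between libraries, with RGPs highest after physical and OLs highest after ischemic injury. With another scaling of the totals (TMM factors, below), Olig1 was lower in RGPs than in OLs after physical injury. This order therefore depends on the scaling. Olig2, needed to make OPCs at all, measured 475 (433 to 521) and 320 (311 to 330) CPM in RGPs. It was higher in OPCs (385, 550 and 437 CPM) and lower in OLs (219, 189 and 197 CPM), an order that held on CPM in both injured libraries. After ischemic injury the log2 ratio of Olig2 in RGPs against OPCs was -0.45. TMM factors raised the median of all genes in that comparison by 0.43. Whether Olig2 differed between ischemic RGPs and OPCs therefore depends on the scaling. Olig2 levels in the 3 OL libraries differed little, and the intervals of the naïve (194 to 245) and physical (179 to 199) values overlapped.

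Sox2, the stem cell factor, was at nearly the same level in RGPs and OPCs on CPM, a closeness that depends on the scaling in the ischemic library. It measured 313 (279 to 351) and 320 (311 to 330) CPM in RGPs, 214, 282 and 287 CPM in OPCs and 103, 104 and 112 CPM in OLs. Sox4 measured 327 and 291 CPM in RGPs and 234, 353 and 290 CPM in OPCs. Its OL values were 5.35 (2.15 to 11.0) and 7.81 (5.88 to 10.2) CPM in naïve and physical cells but 68.0 (64.1 to 72.0) CPM in ischemic cells. Sox11, its close relative, measured 143 (120 to 169) and 214 (207 to 222) CPM in RGPs and 42.2, 88.8 and 119 CPM in OPCs. In OLs Sox11 had 0 UMIs in naïve cells, where 3 UMIs would be 2.29 CPM, and 0.284 and 7.39 CPM in injured cells. Sox11 therefore fell in the order RGPs, OPCs, OLs in each injured library, with no overlap of the intervals.

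Sox9, the radial glial and astrocyte factor, had its highest level in RGPs among these 3 clusters: it measured 38.1 (26.9 to 52.6) and 55.3 (51.6 to 59.2) CPM there, 1.76, 1.06 and 9.37 CPM in OPCs and 0.764, 0.142 and 3.29 CPM in OLs. Its close relatives in structure, Sox8 and Sox10, did not share this pattern. Sox8, which backs up Sox10 in the oligodendrocyte lineage, measured 84.5 (67.2 to 105) and 38.7 (35.7 to 42.0) CPM in RGPs, 80.9, 162 and 167 CPM in OPCs and 121, 118 and 117 CPM in OLs. Nkx2-2 measured 78.3 (61.7 to 98.1) and 52.5 (48.9 to 56.3) CPM in RGPs, 89.7, 108 and 124 CPM in OPCs and 30.6, 25.0 and 27.5 CPM in OLs.

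**Figure D2:**
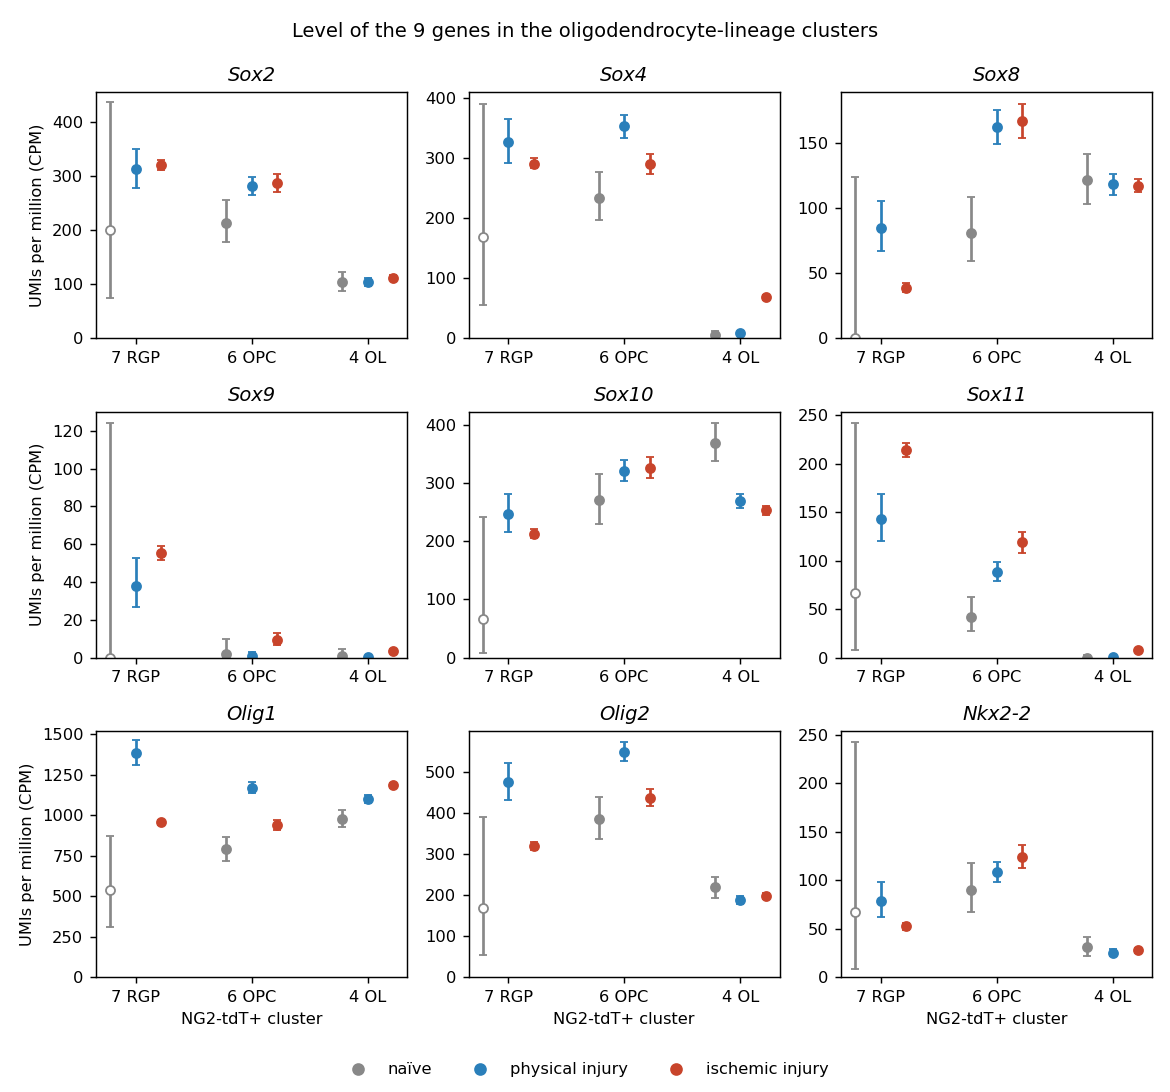
Level of each gene (CPM of the summed cells, linear axis from 0) in the RGP, OPC and OL clusters of the NG2 line, by library. Points are 1 library each, bars are exact 95% Poisson intervals, and open points are naïve cluster 7 (17 cells), which carried pericyte markers. Sox9 lies at 38.1 CPM or more in the injured RGPs and at 9.37 CPM or less in OPCs and OLs, and Sox4 in OLs is at 68.0 CPM in the ischemic library against 5.35 and 7.81 CPM in the other libraries.

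The RGPs were first set against the OPCs of the same library, the comparison that bears on how far the 2 clusters differ. A gene was compared where it reached 10 CPM in the higher cluster, and ratios are log2 of CPM + 1 CPM, with intervals from the counts alone. After physical injury 1 of the 9 genes differed by at least 2-fold, against 24.9% of all 10752 genes compared (11.2% higher and 13.7% lower in RGPs). That gene was Sox9, higher in RGPs by 4.25 on the log2 scale, from 37 UMIs in RGPs against 4 in OPCs, and only 9 of the 76 RGPs held a Sox9 UMI. The count of 37 rested on few cells, since 2 of them held 67.6% of the UMIs. After ischemic injury 3 of 9 genes differed by at least 2-fold, against 27.8% of 10624 genes (10.1% higher, 17.7% lower): Sox9 was 5.90-fold higher in RGPs (log2 2.44, interval without the added CPM 2.09 to 3.08), while Sox8 (-2.08) and Nkx2-2 (-1.22) were lower. In the physical library Sox8 (-0.93) and Nkx2-2 (-0.46) had the same sign within 2-fold. Both shares lie near or below those of all genes, so the 9 genes did not stand apart as a set, and their medians (-0.11 and 0.01) were close to those of all genes compared (-0.14 and -0.26).

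Sox11 was 1.61-fold (physical) and 1.80-fold (ischemic) higher in RGPs than in OPCs, with log2 intervals of 0.40 to 0.98 and 0.71 to 0.99. Olig2 (-0.21 and -0.45) and Sox10 (-0.38 and -0.61) were lower in RGPs in both libraries, by less than 2-fold. Sox2 (0.15 and 0.16), Sox4 (-0.11 and 0.01) and Olig1 (0.25 and 0.03) differed little. Scaling moved the whole comparison: TMM factors raised the median of all genes by 0.43 in the ischemic library and by 0.05 in the physical library. The share of changed genes that were higher in RGPs went from 36.4% to 70.1% in the ischemic library. With TMM, Sox11 passed 2-fold there and Nkx2-2 no longer did, while Sox9 and Sox8 kept their side. Sox11 also passed 2-fold with totals that left out mitochondrial, ribosomal and dividing-cell genes. These totals moved that share to 49.7% and the physical share from 44.9% to 58.7%.

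**Figure D3:**
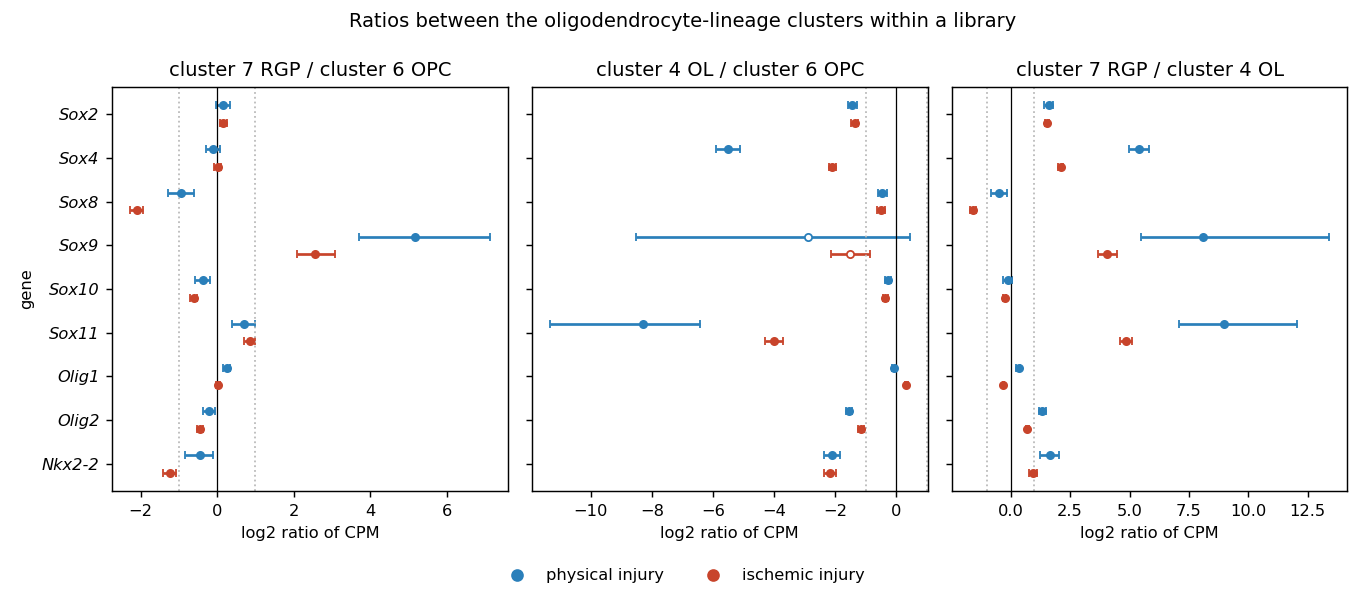
Log2 ratios of CPM (no pseudocount) for each gene between RGPs, OPCs and OLs of the same library, with exact 95% intervals from the counts, and dotted lines at 2-fold. Open points lie under 10 CPM in both clusters. Sox9 lies to the right in RGPs against OPCs in both libraries, and in OLs against OPCs Sox11 lies furthest to the left in both libraries, with Sox4 next in the physical one.

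In OLs against OPCs, Sox2, Sox4, Sox11, Olig2 and Nkx2-2 were lower and Sox8, Sox10 and Olig1 stayed within 2-fold. Of the 8 genes compared, 5 were at least 2-fold lower in OLs and 0 higher, in both injured libraries, where 30.8% (physical) and 29.8% (ischemic) of all genes were lower, 9.80% and 9.67% higher, and 40.6% and 39.5% changed in either direction. The log2 ratios of the 5 were Sox2 (-1.43 and -1.35), Sox4 (-5.33 and -2.08), Sox11 (-6.13 and -3.84), Olig2 (-1.54 and -1.15) and Nkx2-2 (-2.07 and -2.13). Sox8 (-0.46 and -0.51), Sox10 (-0.26 and -0.36) and Olig1 (-0.08 and 0.33) made up the rest. The median of the 8 genes was -1.48 and -1.25, beside -0.46 and -0.47 for all genes. TMM raised the median of all genes by 0.51 and 0.66 and the share of changed genes that were higher from 24.1% to 45.9% and from 24.5% to 54.4%. Under it Sox2 no longer passed 2-fold in either library nor Olig2 in the ischemic one, where Olig1 passed 2-fold as higher (1.02). Sox10 (0.27 and 0.32), Sox8 (0.07 and 0.17) and, after physical injury, Olig1 (0.45) changed sign, so a direction for these 3 genes depends on the scaling. Sox4, Sox11 and Nkx2-2 stayed at least 2-fold lower under every scaling.

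Against OLs, 6 of the 9 genes were at least 2-fold higher in RGPs after physical injury (34.0% of all genes higher, 13.1% lower, 47.1% changed): Sox2 (1.59), Sox4 (5.22), Sox9 (5.10), Sox11 (6.81), Olig2 (1.33) and Nkx2-2 (1.61). After ischemic injury 4 were higher, namely Sox2 (1.51), Sox4 (2.08), Sox9 (3.71) and Sox11 (4.68), and Sox8 was lower (-1.57), beside 29.6% higher, 14.8% lower and 44.4% changed among all genes. The medians of the 9 were 1.59 and 0.91, and of all genes 0.46 and 0.33. TMM moved the median of all genes by -0.63 and -0.38, and moved the share of changed genes that were higher from 72.1% to 45.3% in the physical library. In the ischemic library that share went from 66.7% to 2220 of 4444 changed genes. With it Sox2, Olig2 and Nkx2-2 fell under 2-fold in the physical library, Sox8 passed 2-fold as lower, and Olig1 turned from 0.33 to -0.33.

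Ischemic against physical injury asks what ischemia added to the effect of the needle and fluid. In RGPs 1 of 9 genes differed by at least 2-fold, beside 7.46% of all 10259 genes (2.27% higher, 5.19% lower): Sox8 was lower after ischemia (38.7 against 84.5 CPM, log2 -1.11, interval -1.46 to -0.77). This did not hold under 4 alternatives (TMM factors, the study's own cell filters applied again, leaving out the deepest 5% of cells, and leaving out cells with a vascular or microglial marker UMI), under which 0 genes passed. With means over cells Sox8 also fell under 2-fold, and Sox9 and Sox11 passed it instead. Olig1 (-0.53), Olig2 (-0.57) and Nkx2-2 (-0.57) were also lower after ischemia, and Sox9 (0.52) and Sox11 (0.58) higher, each by less than 2-fold. The ischemic RGPs were deeper (median 37572 against 12792 UMIs) and held more dividing-cell RNA (1467 against 888 CPM), and the part of either in these differences was not tested. TMM moved the share of changed genes that were higher from 30.5% to 48.0% here.

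In OPCs 0 of 8 genes differed by at least 2-fold between the injuries, beside 3.04% of all genes (2.26% higher, 0.784% lower). Sox11 was higher (119 against 88.8 CPM, 0.42), and Olig2 (-0.33), Olig1 (-0.31) and Sox4 (-0.28) lower after ischemia. Sox9, below the minimum, had 37 UMIs (9.37 CPM, from 12 cells) against 4 (1.06 CPM). In OLs 1 of 7 genes differed by at least 2-fold, beside 2.71% of all genes (2.45% higher, 0.262% lower), and it was Sox4: 1177 UMIs after ischemic against 55 after physical injury, or 8.71-fold higher (2.97, interval without the added CPM 2.73 to 3.54). Sox11 (128 against 2 UMIs) and Sox9 (57 against 1) were also higher in ischemic OLs but lay under 10 CPM, while Sox2, Sox8, Sox10, Olig1, Olig2 and Nkx2-2 differed by at most 0.14 on the log2 scale.

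The ischemic Sox4 signal in OLs came from a minority of the cells. A Sox4 UMI was found in 202 of 592 ischemic OLs (34.1%), 28 of 294 physical OLs (9.52%) and 5 of 103 naïve OLs (4.85%), and in 8.53%, 0.687% and 1.02% of cells thinned to 2000 UMIs. In the ischemic library, 48 cells with 5 or more UMIs held 75.4% of all Sox4 UMIs, 28 cells had 10 or more, and the highest had 99. No naïve or physical OL reached 10. Sox4 was seen in 13.5% of thinned pericytes of the ischemic library.

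To see what else these OLs carried, each cell of at least 5000 UMIs had 5000 UMIs drawn, was classed by a drawn Sox4 UMI, and was then measured on its undrawn UMIs. This classing was not among the planned comparisons. The genes below were picked by name, with no share of all genes beside them. The 81 OLs with Sox4 measured 299 (277 to 322) CPM of Sox4 against 24.8 (22.0 to 27.7) in the 465 without, beside the 103 and 124 CPM of pericytes and endothelial cells of that library. They also had more Sox2 (166 against 101 CPM), Sox11 (29.8 against 3.47) and Sox9 (12.2 against 1.65), and less Sox10 (220 against 258). Fabp7 (39.4 CPM, against an interval of 18.5 to 23.7 CPM in the others) and the neuronal tubulin gene Tubb3 (231 against 173) were higher with Sox4 too, and the part of doublets in these values was not tested. The myelin gene Mog was at 2811 (2745 to 2880) against 2958 (2928 to 2989) CPM. The OPC gene Pdgfra (0.419 against 2.81 CPM), the division gene Top2a (0.838 against 2.97) and the pericyte gene Vtn (38.6 against 71.6) were no higher in the cells with Sox4. Pdgfra and Top2a lay far under 10 CPM, from few UMIs in the cells with Sox4. Their values therefore say little of OPCs or dividing cells among these OLs. Only 8 OLs drew a Sox11 UMI, and they had Sox2 at 376 (310 to 451) and Sox4 at 536 (457 to 625) CPM with Mog at 1599 CPM against 2963 in the others.

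**Figure D4:**
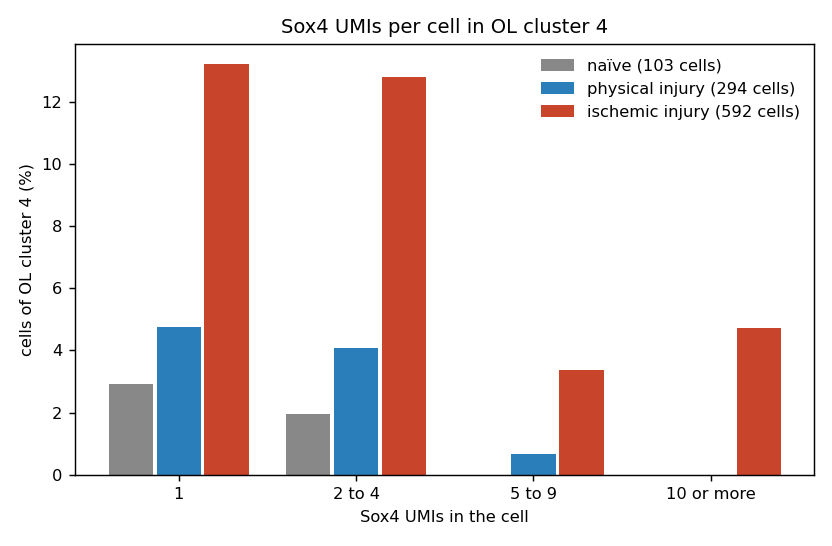
Share of OL cluster cells (%, from 0) with 1, 2 to 4, 5 to 9 and 10 or more Sox4 UMIs in the naïve (103 cells), physical (294) and ischemic (592) NG2 libraries, with no thinning. Cells with 10 or more UMIs occurred in the ischemic library (4.73%) and in neither of the others.

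Against naïve cortex, Sox11 was at least 2-fold higher in OPCs of both injuries, and Sox8 in those of ischemic injury. After physical injury 1 of 8 genes was at least 2-fold higher, Sox11 (88.8 against 42.2 CPM, 1.06, from 24 naïve UMIs), beside 8.31% of all genes changed (3.61% higher, 4.71% lower). Sox8 lay just under 2-fold (0.99) and Sox4 (0.59), Olig1 (0.56), Olig2 (0.51) and Sox2 (0.39) were higher by less. After ischemic injury Sox8 (167 against 80.9 CPM, 1.03) and Sox11 (1.47) were at least 2-fold higher, 2 of 8 genes beside 11.0% of all (6.28% higher, 4.74% lower). The naïve OPC value depends on which cells are counted: at 2000 UMIs 30.5% of naïve OPCs had no UMI of any member other than Sox4, against 7.25% and 7.78% of injured OPCs, and naïve OPCs held 1860 CPM of pericyte markers. With the study's filters applied again, which kept 72 of the 100 naïve cells, 6 genes were at least 2-fold higher after physical injury (Sox4, Sox8, Sox10, Sox11, Olig1 and Olig2) and 3 after ischemic injury (Sox8, Sox10 and Sox11), while the share of all genes that changed rose to 20.9% and 24.6%. In OLs, 0 of 6 genes differed from naïve after physical injury (3.03% of all genes, 1.67% higher and 1.36% lower) and 1 of 7 after ischemic injury (7.53%, 5.32% higher and 2.21% lower), which was Sox4 (12.7-fold, 3.44). Sox10 was lower in injured OLs, by -0.46 and -0.54. Sox11 had 0 UMIs in naïve OLs, and its 7.39 CPM in ischemic OLs was 3.22 times the level that 3 naïve UMIs would give. It lay under 10 CPM, and 8 ischemic OLs held 82.0% of its 128 UMIs.

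RGPs with a Sox9 UMI and RGPs with a Sox10 UMI differed in several of the other genes looked at. This classing was also not among the planned comparisons. Its genes were picked by name and no share of all genes is given. How these differences compare with those of other genes is therefore not known. Of 400 ischemic RGPs thinned to 2000 UMIs, 6 had a UMI of both genes, 20 of Sox9 alone and 131 of Sox10 alone. In physical RGPs both were found in 0 of 47 cells, which allows up to 6.38%. Of the 383 ischemic RGPs with 5000 drawn UMIs, 41 drew Sox9 without Sox10, 183 Sox10 without Sox9, 22 both and 137 neither. On undrawn UMIs, the cells with Sox9 alone had more Fabp7 (6049 against 2406 CPM), Slc1a3 (430 against 216), the glutamate transporter of radial glia and astrocytes, and Id3 (976 against 279), an inhibitor of bHLH factors, than those with Sox10 alone. They had less Olig1 (627 against 1105 CPM), Olig2 (222 against 399) and Sox8 (27.0 against 52.8), and less of the OPC-lineage genes Pdgfra (222 against 382), Cspg4 (53.4 against 144) and Gpr17 (17.6 against 108). Sox2 (303 against 346 CPM) and Sox11 (207 against 219) were alike in size, and Top2a was lower (145 against 260).

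The 2 classes of RGPs were not free of each other's factor: cells with a drawn Sox9 UMI alone still had 92.6 CPM of Sox10 on undrawn UMIs against 292 CPM in the Sox10 class, and 159 against 32.7 CPM of Sox9. Gja1, a gap junction gene, was at 14.2 against 1.42 CPM. Astrocytes use Gja1, but endothelial cells of the ischemic library held more of it (76.8 CPM). Aqp4 (12.8 against 11.5) and Gfap (26.3 against 31.0), which mark mature and reactive astrocytes, did not separate the classes. The median depth of the 2 classes was 41340 and 40674 UMIs. After physical injury 1 cell drew Sox9 alone and 23 Sox10 alone, too few for the same comparison.

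**Figure D5:**
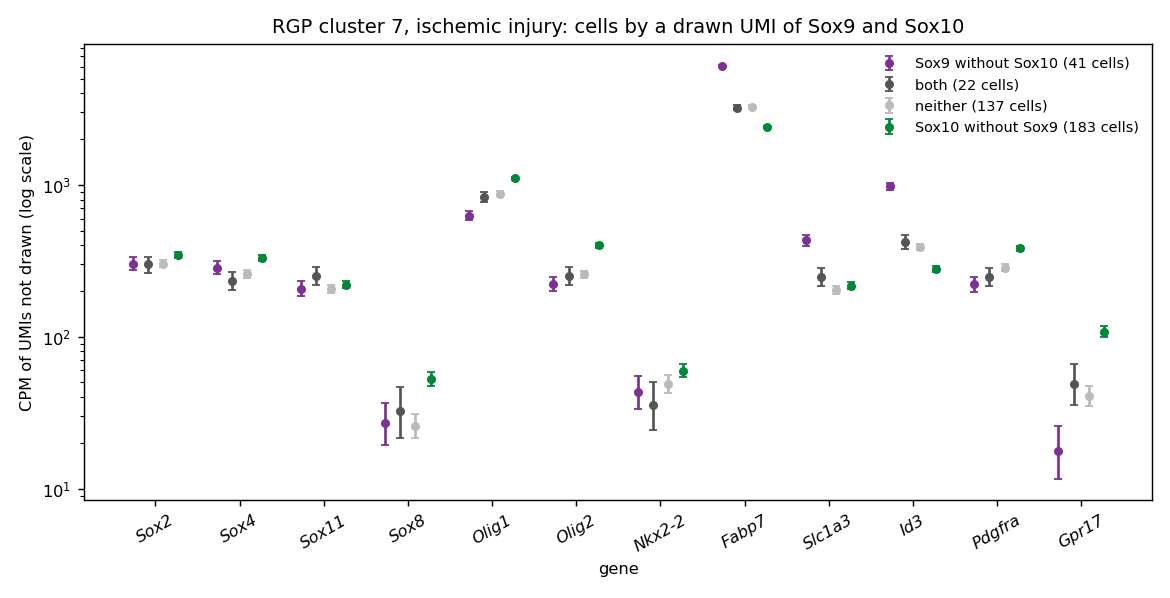
Levels (CPM of UMIs not used for the classing, log axis) of 12 genes in ischemic RGPs classed by a drawn UMI of Sox9 and Sox10, with exact 95% Poisson intervals. Cells with Sox9 alone have the most Fabp7, Slc1a3 and Id3 and the least Gpr17 and Olig1, and Sox2 and Sox11 differ little among the 4 classes.

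In RGPs thinned to 2000 UMIs, the other pairs examined, apart from Sox2 with Sox9, were found together more often than Sox9 with Sox10. Sox2 and Sox9 were both seen in 0 of 47 physical and 9 of 400 ischemic RGPs (2.25%). A joint share depends on how often each gene is seen, and Sox9 was seen in few cells. These shares therefore do not show that 2 genes avoid each other. At 2000 UMIs, Sox2 and Olig2 were both seen in 19.1% and 21.2% of RGPs, 23.6% and 25.9% of OPCs and 7.22% and 5.15% of OLs (physical and ischemic). Sox4 and Sox11 were both seen in 10.6% and 12.8% of RGPs against 6.88% and 6.67% of OPCs, and Sox2 and Sox11 in 14.9% and 15.5% against 6.52% and 7.04%. For the latter pair in the ischemic library the intervals (12.1 to 19.4 and 4.29 to 10.8) did not overlap. Olig2 with Nkx2-2 was seen in 4.50% (2.69 to 7.02) of ischemic RGPs against 11.5% (7.94 to 15.9) of OPCs, and in 8.51% (2.37 to 20.4) against 10.1% (6.85 to 14.3) after physical injury, where the intervals overlapped. So did those of Sox4 with Sox11 and of Sox2 with Olig2 between RGPs and OPCs in both libraries.

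In the ischemic library, RGPs with and without a thinned UMI of a division gene differed little in the 9 genes. There, 171 RGPs with and 229 without a thinned UMI of Top2a or Mki67 had 0 of 9 genes at least 2-fold apart, beside 3.04% of all genes (2.56% higher, 0.479% lower). Before thinning, the median depth of these classes was 41329 and 39694 UMIs, so a dividing cell could lose its UMIs of both genes to thinning. The class without such a UMI can therefore hold dividing cells, and the split cannot show that dividing and other RGPs are alike. Sox4 was lower in the cells with such a UMI (225 against 344 CPM, -0.61), Sox9 somewhat lower (45.8 against 62.7, -0.44) and Sox2 higher (357 against 292, 0.29). In the physical library, with 11 and 36 cells, Sox4 was lower (187 against 377 CPM, -1.01) and Sox9 higher (65.0 against 29.1), 2 of 9 genes beside 23.5% of all (12.3% higher, 11.2% lower). Sox4 thus had the same sign in both libraries and Sox9 did not. The physical Sox9 values came from 17 against 20 UMIs, and the highest single RGP of that library held 17 Sox9 UMIs. The sign of Sox9 there therefore rests on very few cells.

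The wider families were counted over 3 lists: 12 other SOX genes, 18 other bHLH genes and 20 other glial and neurogenic regulators in the NG2 table. Between RGPs and OPCs, 4 of 6 SOX genes compared were at least 2-fold lower in RGPs after physical and 2 of 5 after ischemic injury, with 0 higher. Among all genes 13.7% and 17.7% were lower and 11.2% and 10.1% higher. The lower SOX genes included Sox5 (362 against 840 and 270 against 665 CPM), and Sox6 was 816 against 1436 and 758 against 1764 CPM, both HMG-box partners that hold OPCs back from maturing. Among bHLH genes, Id1 (48.5 against 10.3 and 129 against 13.2 CPM) and Id3 (147 against 25.6 and 394 against 27.6) were higher in RGPs in both libraries, 2 of 14 and 2 of 15 genes, with 1 and 2 lower. Of the regulators, 1 was higher and 4 lower of 14 after physical injury, and 0 and 8 of 14 after ischemic injury. The lower ones included St18 (12.4 against 214 and 2.44 against 197 CPM), Myt1 (67.0 against 171 and 41.8 against 140) and Tcf7l2 (79.4 against 187 and 46.3 against 157), the latter a factor of newly committed OL precursors.

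Between OLs and OPCs, 5 of 6 and 4 of 5 other SOX genes were at least 2-fold lower in OLs, where 30.8% and 29.8% of all genes were lower and 9.80% and 9.67% higher. The lower SOX genes included Sox5, Sox6 (3.83 against 1436 and 9.88 against 1764 CPM), Sox21 and Sox3, and 0 SOX genes were higher. Of the bHLH genes, 9 of 14 and 8 of 14 were lower and 0 higher, including the Notch target Hes5 (0.568 against 133 and 0.520 against 65.3 CPM). Of the regulators, 5 were higher and 6 lower of 14, then 4 and 6 of 14. Nkx6-2 (590 against 11.9 and 552 against 15.2 CPM) and St18 (1975 against 214 and 2018 against 197) led the higher ones. Between injuries, Id1 (1.40) and Id3 (1.41) were higher in ischemic RGPs, 2 of 15 bHLH genes beside 2.27% of all genes higher, with Bhlhe40 (-1.27) lower (5.19% of all). In ischemic OLs Sox5 (18.5 against 5.82 CPM, 1 of 2 SOX genes) and Id3 (18.0 against 6.96, 1 of 6 bHLH genes) were higher beside 2.45% of all genes, and in ischemic OPCs Hes5 was lower (-1.02, 1 of 14 beside 0.784% of all). The proneural genes Neurog1, Neurog3, Neurod1, Neurod2, Neurod4, Neurod6 and Atoh1 are not among the genes of the NG2 table.

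Across the 31 sums of an NG2 cluster in a library with at least 20 cells, the genes whose log2 CPM followed each member most closely were named, out of 14595 genes. The points share libraries and depth, and most of the variation lies between glial and other clusters, so these are descriptions. Sox2 was closest to Itgb8 (Pearson r = 0.978), Olig2 to Npas3 (0.978), Sox10 to Cdh20 (0.975), Sox8 to Gal3st1 (0.975), a sulfatide synthesis enzyme of OLs, Nkx2-2 to Slitrk5 (0.983) and Olig1 to Ncam2 (0.969). Sox9 was closest to Arhgap28 (0.917), Mycn (0.914) and Cd24a (0.887), Sox11 to Mt3 (0.919) and Sox4 to Lmo4 (0.838). Among members, r was 0.985 for Sox2 and Olig2, 0.731 for Sox4 and Sox11, 0.587 for Sox9 and Sox11 and 0.391 for Sox9 and Sox10.

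In the Tbx18 line, Sox2, Sox10, Olig1, Olig2 and Nkx2-2 were nearly confined to cluster 6. That cluster had 22 cells, 14 of physical and 8 of ischemic injury, with 0 naïve cells. Outside it, Sox4 measured 58.0, 55.9 and 60.1 CPM and Sox9 3.49, 14.3 and 14.1 CPM (naïve, physical, ischemic). The other 7 genes were at or under 0.634 CPM there, but Sox8 had 2, 18 and 8 UMIs and Sox11 0, 3 and 5. In cluster 6, Sox8 had 18, 10 and 11 UMIs and Sox11 0, 1 and 3 in the classes described next (Mog, Pdgfra, and Aqp4 or Gja1). The 22 cells were classed by a UMI of Mog, Pdgfra, or Aqp4 or Gja1, a choice made after their values were seen. The 11 cells with Mog had Sox10 at 373, Olig1 at 907 and Olig2 at 197 CPM and 0 UMIs of Sox4, Sox9 and Sox11, where 3 UMIs would be 15.5 CPM. The 8 cells with Aqp4 or Gja1, markers of astrocytes, had Sox2 at 477 and Sox9 at 455 CPM, with Sox9 UMIs in 4 cells, and 0 UMIs of Sox10, Olig1 and Olig2, where 3 UMIs would be 32.5 CPM. The 3 cells with Pdgfra had Sox4 at 528, Olig1 at 931 and Olig2 at 404 CPM, with 0 Sox4 UMIs in the 1 cell of physical injury. Cluster 6 of the Tbx18 line therefore held oligodendrocyte-lineage and astrocyte-marker cells side by side.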

How the data were processed

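Per the labels and the study's methods, live tdT+/DAPI- cells were sorted and made into 10x Genomics 3' v3 libraries. The submitters' processing notes name Cell Ranger 7.0.0 and the builds mm10 and GRCm38. The study's methods give a range of Cell Ranger versions that ends at 7.0.0. Which version counted each library is therefore not known here, and its part in differences between libraries was not tested. The authors filtered cells, integrated libraries and clustered them in Seurat. The deposited tables hold UMI counts per gene and cell, with the cluster and library of each cell. The deposited percent of mitochondrial UMIs per cell, computed by the authors, was used only to apply the study's filters again. There was 1 library per group.

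Counts were summed per cluster and library and divided by the total (CPM). Levels have exact Poisson intervals, shares exact Clopper-Pearson intervals and ratios exact conditional binomial intervals, all at 95% and for counting error only. Genes at 10 CPM or more in the higher cluster were compared on log2(CPM + 1), and a 2-fold difference was counted, with no test. Cells were thinned to 2000 UMIs (1000, 5000 and no thinning as alternatives). Other alternatives were TMM factors (edgeR 4.0.16 in R 4.3.3), totals without mitochondrial, ribosomal and dividing-cell genes, a pseudocount of 5 CPM, no minimum or 50 CPM, means over cells, the study's cell filters, and leaving out deep or marker-bearing cells. Python 3.11.15, numpy 2.4.6, scipy 1.17.1 and pandas 2.3.3 were used. The script was tested on simulated data.

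The members and gene lists were chosen with earlier results of these data known. Of each list, at most the 5 genes with the largest ratio in a comparison could be named, and for each member at most the 3 genes most like it. Markers were named where a label was checked or cells were classed. The total UMIs of the libraries ran from 3153996 to 54276245, which sets the precision. Single values of some marker and list genes are not reported here.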

Additional observations from a re-analysis of the deposited data

Results flagged for a closer look

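Between clusters, 3 genes had ischemic against physical differences of opposite sign, on the log2(CPM + 1) scale and with counting intervals on different sides of 0. With 1 library per group the difference was not tested in any of these cases.

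Sox4 was higher after ischemia in the OLs (2.97) and lower in the OPCs (-0.28). Olig1 was slightly higher after ischemia in the OLs (0.10), and lower in the RGPs (-0.53) and the OPCs (-0.31). Nkx2-2 was higher after ischemia in the OPCs (0.20) and lower in the RGPs (-0.57). The median of all genes compared was 0.07 in the OLs and 0.05 in the OPCs, and TMM factors moved it by -0.07 in each. The Olig1 value in the OLs thus lay near that of all genes. The Nkx2-2 interval in the OPCs, 0.01 to 0.39 without the added CPM, came close to 0.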

How the results depend on the processing

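No paired analysis was possible because each group had 1 library and all carry replicate number 1. Of 154 alternative counts over the genes, shares and pairs, 127 stayed within 1.5 times, and of 1170 ratios of single genes 935 stayed within the counting interval of the reported ratio, the others moved beyond it, and 0 reversed a called direction. The genes at least 2-fold apart between RGPs and OPCs after physical injury (1) were 0 with a 50 CPM minimum, and 2 with means over cells, with the study's filters and without marker-bearing cells. Between injuries, the count in RGPs (1) was 0 with TMM, the filters, no deepest 5% or no marker-bearing cells, and 2 with means over cells. The count in OPCs (0) was 1 with reduced totals, no minimum or no deepest 5%, and that in OLs (1) was 3 with no minimum. Against naïve OPCs, the physical count (1) was 2 with TMM, means over cells or no deepest 5%, 0 with a pseudocount of 5 CPM and 6 with the filters, and the ischemic count (2) was 1 with that pseudocount or no marker-bearing cells. The ischemic against naïve OL count (1) was 3 with no minimum. Of shares in the physical library, the genes more frequent in RGPs than OPCs (5) were 3 at 5000 UMIs and 1 unthinned, in OLs than OPCs (2) 1 at 1000 UMIs and 5 unthinned, and in RGPs than OLs (6) 3 unthinned. In the ischemic library those more frequent in OLs than OPCs (1) were 5 unthinned. The cause was not tested. For these counts by share of cells, no share of all genes is given. They therefore do not show whether the genes examined here differ from other genes. A repeat with only cells holding a UMI of their cluster's marker (Fabp7, Ptprz1 or Mog), chosen after seeing the data, changed no count by over 1.5 times.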

Other observations

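Sox2ot, the long noncoding gene that holds Sox2, did not follow it. It measured 467 (425 to 512) and 302 (293 to 311) CPM in the RGPs of physical and ischemic injury, 1842, 1640 and 931 CPM in naïve, physical and ischemic OPCs and 959, 881 and 787 CPM in OLs, while Sox2 was at 313 and 320 CPM in these RGPs and at 282 and 287 CPM in injured OPCs. OLs had more Sox2ot and less Sox2 than RGPs in both injured libraries.

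In the Tbx18 line, Sox9 outside cluster 6 was concentrated in a few clusters, at 8.09, 23.2 and 16.7 CPM in cluster 0 and 13.7, 32.2 and 35.3 CPM in cluster 4 (naïve, physical, ischemic), with Sox10 at 0 UMIs in all 6 of these sums. These clusters were not named here.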
